A study of Homo sapiens with 18 samples.

Results

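RGS1, RGS2, RGS16, PDE4B, PDE4D, CREM, SIK1 and RHOB are 8 genes whose products act on G-protein or cAMP signalling or are known to be switched on by it, and RNA-seq counts of these genes were followed in MM1R and MM1S multiple myeloma cells. They were picked by symbol from the 43735 genes of the count table, with their counts in RSL3-treated and untreated cells already known. The RSL3 response of these genes is therefore given as a description, and the calls of the fit over all genes in this contrast count for nothing as evidence about them. All 8 passed the filter on low counts that left 14281 genes for testing. RHOB was the member with the largest fitted RSL3 response in both lines, at 16.5-fold in MM1R and 13.1-fold in MM1S cells, whereas RGS16 and SIK1 differed by less than 2-fold in both. With ferrostatin-1 (Fer-1) given before RSL3, RHOB, RGS1 and RGS2 were called higher than in untreated cells when both lines were averaged. That comparison was added after seeing the data and shares its untreated libraries with the choice of members. Within single lines 0 of the 8 were called in the edgeR fit without pairing by passage. Of all genes, 1.75% in MM1R and 0.938% in MM1S were called higher there. With passage as a block, RGS1 and RHOB were called in MM1R, against 2.88% of all genes called higher. In MM1S the block called RHOB and PDE4D, against 1.83% of all genes. DESeq2 called RHOB in both lines, against 1.08% of all genes in MM1R and 0.593% in MM1S. Leaving out 1 library at a time, the averaged call held in all 18 fits for RHOB, 12 for RGS2 and 9 for RGS1. These fits reuse the same members and libraries, so they describe the call and do not test it. SIK1 with Fer-1 and RSL3 lay below its untreated level in each of the 6 passages but was not called. All its Fer-1-pretreated libraries lay below all untreated libraries of their line, as did those of 14.1% of all genes in MM1R and 13.6% in MM1S. SIK1 counts are uncertain, since its exons overlap another gene model.

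When a hormone or chemokine binds a G-protein-coupled receptor, the alpha subunit of the G protein exchanges GDP for GTP and either raises or lowers the activity of adenylyl cyclases, which make cAMP. cAMP activates protein kinase A, which phosphorylates the transcription factor CREB at cAMP response elements (CREs) in gene promoters. Several genes induced in this way encode proteins that dampen the same signal: RGS proteins speed GTP hydrolysis by alpha subunits, phosphodiesterases break down cAMP, the short ICER forms of CREM repress CREs, and the kinase SIK1 keeps the CREB coactivators in the cytoplasm. Many of these genes are also immediate early genes that other stress and mitogen signals induce.

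MM1S is the glucocorticoid-sensitive and MM1R the glucocorticoid-resistant line of the same myeloma parental cells. Cells were grown in RPMI-1640 with FBS and penicillin-streptomycin and were left untreated, exposed to 5 µM RSL3 for 3 h, or pretreated for 2 h with Fer-1 at 2 µM and then exposed to RSL3. GPX4, which detoxifies peroxidised membrane lipids, is the target of RSL3, and Fer-1 traps lipid radicals and thereby counteracts ferroptosis. Each of the 6 groups held 3 libraries. Replicates 1, 2 and 3 were passages 4, 6 and 7 of MM1R and passages 16, 22 and 23 of MM1S. P-values thus measure the spread between passages of 1 line each. In the main fit each gene has 1 estimate of this spread, shared over all 6 groups. No group received Fer-1 alone, so Fer-1 was seen only together with RSL3. In bulk RNA, a lower share of cells expressing a gene and less of its RNA per cell cannot be told apart.

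Library totals ranged from 17635438 to 19368343 counts. The glucocorticoid receptor gene NR3C1 followed the line labels in untreated cells, at 13.8 to 14.9 counts scaled to library size (CPM) in MM1R and 89.9 to 152 CPM in MM1S. One Fer-1-pretreated MM1R library, replicate 2 (passage 6), went against its label in part: 5 genes typical of MM1S stood at 46.4% of their MM1S level and 12 genes typical of MM1R at 45.1% of their MM1R level, and its NR3C1 level was 50.2 CPM against 16.9 and 15.3 CPM in the other 2 libraries of its group. The plasma cell markers were present in every library, with CD38 lowest at 39.7 CPM. The RSL3-treated MM1S library of passage 16 stood apart by its TMM factor of 0.864, its 10.5% of counts in the top 10 genes, an NR3C1 level of 392 CPM and the highest COL1A1 level, 16.8 CPM. The summed level of the fibroblast markers COL1A1, COL1A2 and DCN ran from 0.755 to 17.0 CPM in the RSL3-treated MM1S group, with at most 2 counts of DCN in any library. The part of these library differences in the results was not tested, and values without the libraries concerned are given beside the results.

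The promoters of the members were inspected because CREs are the sites through which cAMP acts on transcription. Of the 8 promoters in the RefSeq table (build GRCh38.p14; 250 bases before to 50 after each start), 0 held the full CRE, TGACGTCA, which 1.98% of all 27305 promoters hold. The CRE half-site, TGACG on either strand, was in 4 of 8 member promoters (RGS1, RGS2, SIK1 and RHOB) against 25.0% of all promoters. SIK1 had it at 3 positions, a number reached in 1.47% of promoters. The 250 bases before the start are printed for SIK1, which has the most half-sites, for RHOB, which has the largest response, and for RGS1. Capitals mark half-sites, here in the orientation CGTCA, and each sequence was found exactly once in hg19, at chr21:44847012-44847261 on the minus strand for SIK1, chr2:20646585-20646834 on the plus strand for RHOB and chr1:192544653-192544902 on the plus strand for RGS1.
SIK1: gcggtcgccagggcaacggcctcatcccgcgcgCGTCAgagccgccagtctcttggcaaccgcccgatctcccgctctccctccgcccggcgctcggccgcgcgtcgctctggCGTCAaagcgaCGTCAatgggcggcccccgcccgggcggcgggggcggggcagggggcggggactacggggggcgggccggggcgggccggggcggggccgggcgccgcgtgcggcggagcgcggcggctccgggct
RHOB: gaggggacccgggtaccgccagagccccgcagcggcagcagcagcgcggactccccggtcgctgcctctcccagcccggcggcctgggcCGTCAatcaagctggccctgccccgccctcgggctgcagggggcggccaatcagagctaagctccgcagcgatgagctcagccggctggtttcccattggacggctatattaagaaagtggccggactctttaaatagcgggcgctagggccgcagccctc
RGS1: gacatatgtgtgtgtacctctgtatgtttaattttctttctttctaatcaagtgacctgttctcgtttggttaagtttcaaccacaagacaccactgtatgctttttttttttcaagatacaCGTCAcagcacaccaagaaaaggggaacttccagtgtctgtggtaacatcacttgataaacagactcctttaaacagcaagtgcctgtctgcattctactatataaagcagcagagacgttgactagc
Counted back from the start, the half-sites begin at positions -217, -137 and -126 in SIK1, -161 in RHOB, -128 in RGS1 and -181 in RGS2. The AP-1 site TGAGTCA occurred in 1 member promoter (PDE4D, -124) and in 4.92% of all promoters. The antioxidant response element core TGACNNNGC, searched on both strands, occurred in 1 member promoter (SIK1, -130, overlapping a half-site) and in 13.6% of all promoters. The CArG box and the heat shock element core GAANNTTC were in 0 of 8, against 1.29% and 6.87% of all promoters. A match is a run of letters in this window and not evidence of binding, and PDE4B, PDE4D and CREM have 18, 25 and 44 annotated transcript starts, of which 1 each was searched.

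In hg19 coordinates (GENCODE annotation), RGS1 lies at chr1:192544893-192549154 and RGS2 at chr1:192778169-192781405, both on the plus strand and 229 kb apart, and RGS16 at chr1:182567758-182573524 on the minus strand. PDE4B spans chr1:66258197-66840262 (plus), PDE4D chr5:58264865-59817947 (minus), CREM chr10:35415719-35501886 (plus), SIK1 chr21:44834363-44847011 (minus) and RHOB chr2:20646835-20649201 (plus). SIK1 counts are uncertain, because 91.0% of its exonic bases, 4741 bases, are shared on the same strand with the gene model ENSG00000275993. Overlaps with genes on the opposite strand were small, at most 3.60% of exonic bases for CREM (ENSG00000230534; 3.35% with CUL2) and 1.39% for PDE4D (PART1).

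RGS1 is a GTPase-activating protein of lymphoid cells that limits chemokine receptor signalling. Its level in untreated MM1R cells was 109, 72.4 and 58.4 CPM in replicates 1, 2 and 3. RSL3-treated MM1R cells had 928, 416 and 1932 CPM, and Fer-1-pretreated cells 285, 198 and 203 CPM. The MM1R groups were thus fully separated, with RSL3 highest, Fer-1 with RSL3 between and untreated lowest. In MM1S cells the values were 111, 106 and 72.6 CPM untreated, 1152, 152 and 155 CPM with RSL3, and 503, 191 and 128 CPM with Fer-1 and RSL3. Passage 16 was the high library in both treated MM1S groups, and the treated groups overlapped each other but not the untreated group. The fitted log2 fold change upon RSL3 was 3.77 (SE 0.76) in MM1R and 2.33 (SE 0.71) in MM1S cells. Without the passage 16 RSL3 library the MM1S value was 0.67, and without the passage 7 RSL3 library the MM1R value was 3.08.

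RGS2 acts mainly on the Gq alpha subunit and also inhibits adenylyl cyclases. Untreated MM1R libraries held 51.0, 46.3 and 42.8 CPM, RSL3-treated libraries 272, 134 and 887 CPM, and Fer-1-pretreated libraries 151, 113 and 91.2 CPM. Untreated MM1S libraries held 39.0, 54.3 and 39.8 CPM, RSL3-treated libraries 720, 99.4 and 93.3 CPM, and Fer-1-pretreated libraries 203, 181 and 114 CPM. Every treated library in either line lay above all untreated libraries of its line. In passages 22 and 23 of MM1S the Fer-1-pretreated libraries were above the RSL3 libraries of the same passage. The fitted log2 fold change upon RSL3 was 3.20 (SE 0.72) in MM1R and 2.78 (SE 0.70) in MM1S cells, or 2.12 and 1.12 without the passage 7 and the passage 16 RSL3 library, respectively.

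RGS16, which accelerates GTP hydrolysis by Gi and Gq alpha subunits, differed from RGS1 and RGS2 in the evenness of its levels. It held 14.2, 16.8 and 21.3 CPM in untreated MM1R, 27.6, 23.7 and 24.3 CPM in RSL3-treated MM1R and 28.2, 18.3 and 19.5 CPM in Fer-1-pretreated MM1R cells. In MM1S cells it held 11.3, 15.9 and 15.9 CPM untreated, 29.8, 26.2 and 24.3 CPM with RSL3 and 25.4, 32.03 and 24.2 CPM with Fer-1 and RSL3. No library stood far from its group, and all 6 treated MM1S libraries lay above the 3 untreated ones. The RSL3 log2 fold change was 0.53 (SE 0.19) in MM1R and 0.89 (SE 0.19) in MM1S cells, and 0.56 and 0.81 without the passage 7 and the passage 16 RSL3 library.

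PDE4B and PDE4D encode cAMP-specific phosphodiesterases, and PDE4B is the form most often described as inducible in leukocytes. PDE4B counted 15.3, 13.5 and 11.5 CPM in untreated MM1R cells, 90.3, 49.99 and 183 CPM with RSL3 and 27.9, 21.4 and 20.9 CPM with Fer-1 and RSL3, 3 groups that did not overlap. In MM1S cells PDE4B counted 9.79, 7.84 and 8.88 CPM untreated, 119.8 CPM, 15.0 CPM and 14.5 CPM with RSL3, and 24.9, 15.6 and 14.5 CPM with Fer-1 and RSL3. The MM1S RSL3 mean rested on passage 16: the log2 fold change of 2.49 (SE 0.65) was 0.74 without that library, while the MM1R value of 3.01 (SE 0.65) was 2.39 without the passage 7 RSL3 library. PDE4D, a related cAMP phosphodiesterase, was scarcer in the counts, at 2.61 to 5.92 CPM untreated, 8.72 to 17.8 CPM with RSL3 and 5.63 to 9.05 CPM with Fer-1 and RSL3 in MM1R cells. In MM1S cells PDE4D ranged from 1.86 to 5.85 CPM untreated, was 33.4 CPM in passage 16 and 5.65 and 4.48 CPM in passages 22 and 23 with RSL3, and ranged from 3.72 to 13.8 CPM with Fer-1 and RSL3. Only in MM1R was every RSL3 library of PDE4D above every untreated library. Its RSL3 log2 fold change was 1.80 (SE 0.67) in MM1R and 1.99 (SE 0.67) in MM1S cells, and 0.49 in MM1S cells without the passage 16 library.

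CREM encodes CREB-family activators and, from an internal promoter, the repressor ICER. The count table does not separate these forms. CREM counted 20.1, 22.99 and 20.04 CPM in untreated MM1R cells, 46.0, 26.9 and 56.6 CPM with RSL3 and 35.1, 24.0 and 22.2 CPM with Fer-1 and RSL3. Its MM1S libraries held 16.01, 17.5 and 14.1 CPM untreated, 266, 22.1 and 16.6 CPM with RSL3 and 23.6, 22.4 and 15.7 CPM with Fer-1 and RSL3. The 266 CPM library, passage 16, was the only CREM value above 56.6 CPM among the 18 libraries. The MM1S log2 fold change upon RSL3 of 2.67 (SE 0.71) was accordingly 0.29 without it, and the MM1R value was 1.04 (SE 0.68).

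SIK1, a salt-inducible kinase that protein kinase A inhibits, showed a different order of groups. It counted 11.4, 10.2 and 7.82 CPM in untreated MM1R cells, 17.6, 7.74 and 23.7 CPM with RSL3 and 6.77, 5.51 and 3.88 CPM with Fer-1 and RSL3. The MM1S libraries of SIK1 held 8.13, 6.01 and 6.98 CPM untreated, 24.2, 6.39 and 5.60 CPM with RSL3 and 3.53, 3.88 and 3.20 CPM with Fer-1 and RSL3. The Fer-1-pretreated libraries lay below all untreated and all RSL3-treated libraries of their own line, whereas RSL3 and untreated libraries overlapped in both lines. The log2 fold change upon RSL3 was 0.73 (SE 0.45) in MM1R and 0.77 (SE 0.46) in MM1S cells. Without the passage 16 RSL3 library the MM1S value was -0.23.

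RHOB encodes a small GTPase of endosomes and is an immediate early gene, not a cAMP regulator itself. Its untreated levels were close in both lines, at 72.7, 78.3 and 73.2 CPM in MM1R and 77.6, 81.2 and 70.2 CPM in MM1S cells. RSL3-treated cells had 993, 324 and 2374 CPM in MM1R and 2397, 321 and 290.0 CPM in MM1S. Fer-1-pretreated cells had 337, 267 and 313 CPM in MM1R and 483, 439 and 289.8 CPM in MM1S. Every treated RHOB library was above every untreated one, and the RSL3 and Fer-1-pretreated ranges overlapped in both lines. The RSL3 log2 fold change was 4.04 (SE 0.73) in MM1R and 3.72 (SE 0.72) in MM1S cells, and was 3.15 and 2.01 without the passage 7 and the passage 16 RSL3 library, respectively.

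**Figure D1:**
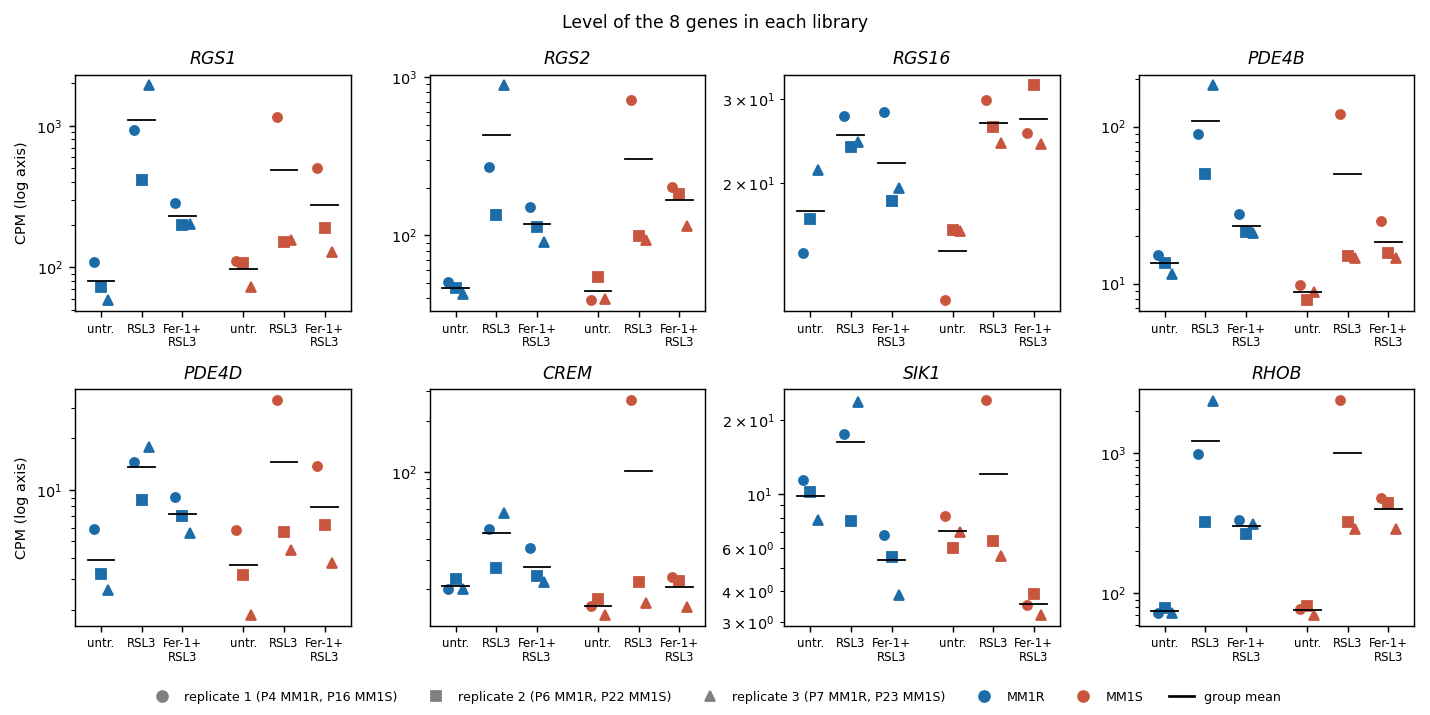
Levels of the 8 members in CPM (log axis) in each of the 18 libraries, with points for replicates 1, 2 and 3 and a bar for the group mean. The RSL3-treated libraries of MM1R passage 7 and MM1S passage 16 sit highest for RGS1, RGS2, PDE4B, PDE4D, CREM, SIK1 and RHOB within their lines, while RGS16 stays between 11.3 and 32.03 CPM.

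Counting calls as a false discovery rate (FDR, Benjamini-Hochberg adjusted p from edgeR) under 0.05 with an absolute log2 fold change above 1, RSL3 against untreated called 4 members higher in MM1R (RGS1, RGS2, PDE4B and RHOB), where 1.06% of all genes were called higher. In MM1S it called 4 members (RGS2, PDE4B, CREM and RHOB), where 1.35% of all genes were called higher. Non-overlap was as follows: 7 members in MM1R (all but SIK1) had every RSL3 library above every untreated library, against 13.5% of all genes, and 5 members in MM1S (RGS1, RGS2, RGS16, PDE4B and RHOB), against 12.6%. Since this contrast chose the members, these counts restate the choice and nothing is read from them.

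Compared with the untreated library of the same passage, the RSL3 ratios spanned a wider range over the 6 passages than the ratios of Fer-1 with RSL3 for every member except RGS16. RHOB was higher with RSL3 by 13.7-fold, 4.13-fold and 32.4-fold in MM1R passages 4, 6 and 7 and 30.9-fold, 3.96-fold and 4.13-fold in MM1S passages 16, 22 and 23. With Fer-1 before RSL3 the same RHOB ratios were 4.63, 3.41 and 4.28 in MM1R and 6.23, 5.41 and 4.13 in MM1S. RGS1 showed the widest spread: its RSL3 ratios were 8.53, 5.75 and 33.0 in MM1R and 10.4, 1.43 and 2.14 in MM1S, a 23.1-fold span, whereas its ratios with Fer-1 and RSL3 spanned 2.55-fold, from 1.77 to 4.52. The corresponding spans were 11.3-fold and 2.45-fold for RGS2, 9.83-fold and 1.61-fold for PDE4B, 14.2-fold and 1.67-fold for CREM and 3.98-fold and 1.49-fold for SIK1. RGS16 had spans of 2.30-fold and 2.44-fold. Over all genes, the standard deviation of the log2 ratio of RSL3 to untreated was 0.648, 0.452 and 0.645 in MM1R passages 4, 6 and 7. In MM1S passages 16, 22 and 23 it was 0.867, 0.452 and 0.432. It was thus alike in MM1R passages 4 and 7, where the median log2 ratio of the members was 1.85 and 3.35. For Fer-1 with RSL3 to untreated it was 0.598, 0.609 and 0.579 in MM1R and 0.605, 0.521 and 0.472 in MM1S. These values exceeded those of RSL3 in MM1R passage 6 and MM1S passages 22 and 23. With RSL3 alone, more than 2-fold higher values were reached by 6, 5 and 7 of the 8 members in the MM1R passages and by 8, 1 and 4 in the MM1S passages, against between 2.37% and 9.23% of all genes. The members were chosen with these libraries known, so these counts restate the choice and nothing is read from them.

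**Figure D2:**
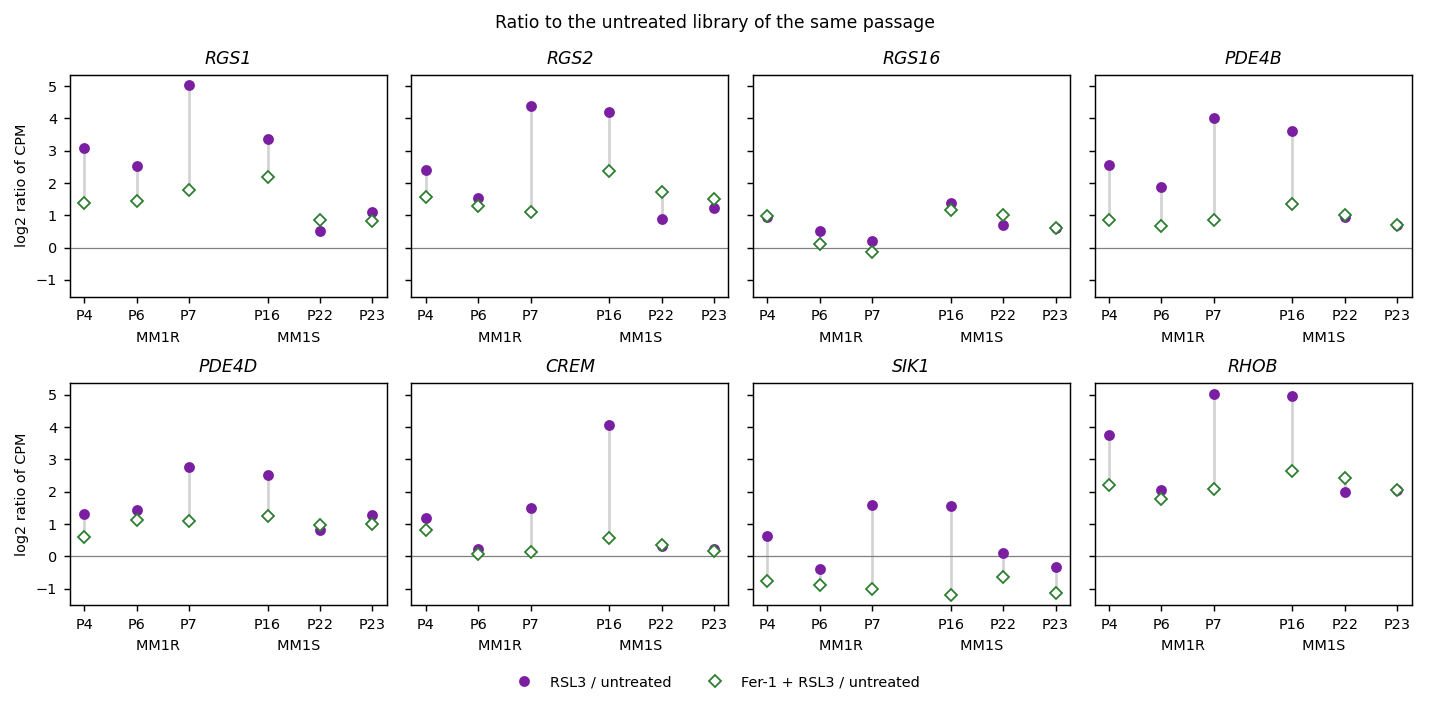
Log2 ratio of the CPM of each treated library to the untreated library of the same passage (y axis) for the 8 members in the 6 passages, for RSL3 and for Fer-1 with RSL3. RSL3 ratios of RGS1 (circles) run from 1.43-fold to 33.0-fold and those of Fer-1 with RSL3 (diamonds) from 1.77-fold to 4.52-fold, and the SIK1 points with Fer-1 and RSL3 all lie below 0, at ratios of 0.434 to 0.646.

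The coefficient of variation within groups differed between the members. The median coefficient of variation of the 8 members was 56.3% in RSL3-treated MM1R and 118% in RSL3-treated MM1S cells, against 16.4% and 16.7% in untreated and 24.1% and 26.6% in Fer-1-pretreated cells, while the median over all genes lay between 11.7% and 18.2% in every group. RGS16 lay below the median of all genes with RSL3, at 8.25% in MM1R against 13.9% and at 10.6% in MM1S against 18.2%. The order of the group means differed between the members. RSL3-treated MM1R cells had the highest mean for RGS1, RGS2, PDE4B, SIK1 and RHOB, RSL3-treated MM1S cells for PDE4D and CREM, and Fer-1-pretreated MM1S cells for RGS16. Of the 40 pairs of neighbours in these orders, 36 had overlapping library ranges. The 4 that did not were Fer-1-pretreated MM1R cells over the higher untreated group for RGS1, RGS2 and RHOB, and untreated MM1R over untreated MM1S cells for PDE4B. The matching share over all genes was not computed, so nothing is read from these counts.

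Fer-1 with RSL3 was set against RSL3 alone, a comparison that shares the RSL3 libraries with the one that chose the members. Members picked with these libraries known can be favoured in advance to be lower with Fer-1. Their counts, calls and FDR values in this comparison are therefore a description and no test of Fer-1. No member passed the threshold in MM1R cells, where edgeR called 0% of genes lower, 346 genes (2.42%) were lower at an unadjusted p under 0.05, and 5 members were among them. The point estimates in MM1R were all below 0, from -0.20 for RGS16 to -2.26 (SE 0.71) for RGS1 on the log2 scale, with PDE4B at -2.20 (95% interval -3.52 to -0.89; edgeR Benjamini-Hochberg FDR = 0.504) and SIK1 at -1.60 (-2.58 to -0.62; FDR = 0.541). Without the RSL3 library of MM1S passage 16, which is outside this contrast but part of the fit over all libraries, PDE4B and SIK1 were called in MM1R (edgeR Benjamini-Hochberg FDR = 0.0116 and 0.03). Without all 3 libraries of MM1S passage 16, RGS1, PDE4B and SIK1 were called (edgeR Benjamini-Hochberg FDR = 0.0231, 0.0121 and 0.0305), where 0.27% of all genes were called lower. Without the MM1R library that holds markers of both lines, the RGS1, PDE4B and SIK1 values were -2.16, -2.14 and -1.61, those of the other members lay between -1.92 (RHOB) and -0.08 (RGS16), and no member was called. In MM1R cells every Fer-1-pretreated library lay below every RSL3 library for RGS1, PDE4B and SIK1, which 6.44% of all genes showed.

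In MM1S cells the same comparison called no member among the 0% of genes called lower, with 3 members among the 494 genes (3.46%) lower at an unadjusted p under 0.05 in edgeR. The estimates ran from -2.30 (SE 0.70) for CREM to 0.02 (SE 0.19) for RGS16 on the log2 scale. They rested on passage 16: without its RSL3 library, RGS1, RGS2, RGS16, PDE4B, PDE4D, CREM and RHOB stood between 0.09 and 0.83, and SIK1 alone stayed negative at -0.76. SIK1 was also the 1 member whose Fer-1-pretreated MM1S libraries all lay below the RSL3 libraries, as did 4.17% of all genes. By passage, Fer-1-pretreated libraries were below RSL3 libraries for 7, 8 and 8 members in MM1R passages 4, 6 and 7 and for 8, 1 and 6 members in MM1S passages 16, 22 and 23, where between 48.0% and 53.5% of all genes were lower. SIK1 was lower in 6 of 6 passages, RGS1, PDE4D, CREM and RHOB in 5, and RGS2, RGS16 and PDE4B in 4.

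Averaged over the 2 lines, Fer-1 with RSL3 against RSL3 alone called 0.056% of genes lower and 0 of the 8 members. At an unadjusted p under 0.05 in edgeR 885 genes (6.2%) were lower, 6 members among them. The limit from the shared RSL3 libraries holds here too. SIK1 was nearest to the threshold at a log2 difference of -1.68 (SE 0.33; edgeR Benjamini-Hochberg FDR = 0.0545), followed by PDE4B at -1.82 (SE 0.44; FDR = 0.0937). With passage as a block both passed, SIK1 at -1.55 (edgeR Benjamini-Hochberg FDR = 0.0259) and PDE4B at -1.51 (FDR = 0.044), 2 members where 0.252% of all genes were called lower. DESeq2 without a block called the same 2 genes (Benjamini-Hochberg FDR = 6.97e-05 for SIK1 and 0.0174 for PDE4B), with 0.19% of all genes called lower. With the block but without MM1R passage 6, SIK1 was called at -1.77 (edgeR Benjamini-Hochberg FDR = 0.0423) and PDE4B was not. With single libraries left out, SIK1 was called in 4 of 18 fits, those without an RSL3-treated MM1S library or without RSL3-treated MM1R replicate 2 (smallest edgeR Benjamini-Hochberg FDR = 0.0147). PDE4B was called in 2 of these, without RSL3-treated MM1S replicate 2 or 3, and CREM in 1, without replicate 3 (smallest edgeR Benjamini-Hochberg FDR = 0.0213 for PDE4B and 0.0475 for CREM).

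**Figure D3:**
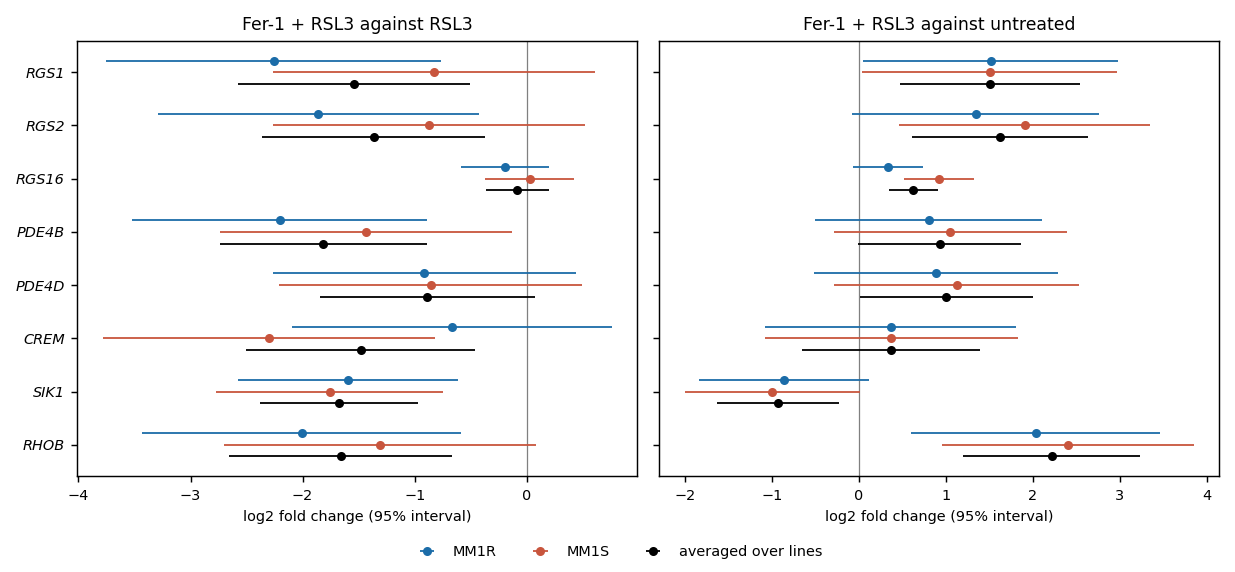
Fitted log2 differences of the 8 members for Fer-1 with RSL3 against RSL3 alone and against untreated cells, for each line and averaged over both, with 95% intervals from the fit. Against RSL3 alone the averaged SIK1 value is -1.68 and that of RGS16 -0.09, and against untreated cells RHOB, RGS2 and RGS1 sit at 2.22, 1.62 and 1.51 while SIK1 sits at -0.93.

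Fer-1 with RSL3 was next compared with untreated cells, whose libraries are also those of the contrast that chose the members. The choice can thus favour a difference from untreated cells in advance. Counts, calls and FDR values of the members in this comparison, by line and averaged, are therefore a description and no test. Within single lines 0 of 8 members were called, where 1.75% of genes were called higher and 0.413% lower in MM1R and 0.938% higher and 0.427% lower in MM1S. RHOB was closest, at a log2 fold change of 2.03 (SE 0.68; edgeR Benjamini-Hochberg FDR = 0.0703) in MM1R and 2.40 (SE 0.69; FDR = 0.0553) in MM1S cells. RGS16 had an FDR of 0.0101 (edgeR, Benjamini-Hochberg) in MM1S cells with a log2 fold change of 0.92 (SE 0.19), below the fold threshold. With passage as a block, RGS1 (1.51; edgeR Benjamini-Hochberg FDR = 0.038) and RHOB (2.00; FDR = 0.0257) were called in MM1R, and RHOB (2.33; FDR = 0.0189) and PDE4D (1.09; FDR = 0.0494) in MM1S, where 2.88% and 1.83% of all genes were called higher. DESeq2 called RHOB in both lines (Benjamini-Hochberg FDR = 0.0419 in MM1R and 0.0163 in MM1S), with 1.08% and 0.593% of all genes called higher. Without the library that holds markers of both lines, the MM1R log2 fold changes were 2.12 for RHOB, 1.61 for RGS1, 1.37 for RGS2, 0.90 for PDE4D, 0.86 for PDE4B, 0.45 for RGS16, 0.44 for CREM and -0.88 for SIK1, with 0 members called. With 1 library left out, RHOB was called in MM1R without RSL3-treated MM1R replicate 2 or RSL3-treated MM1S replicate 1 or 3, and in MM1S without RSL3-treated MM1R replicate 2 or 3 or any RSL3-treated MM1S library. Without the RSL3-treated MM1S replicate 1, RGS1 was called in MM1R and RGS2 in MM1S, and RGS16 was called in MM1S without untreated MM1S replicate 2 or 3. In MM1R cells every Fer-1-pretreated library was above every untreated library for RGS1, RGS2, PDE4B and RHOB (4 members, 16.5% of all genes), and in MM1S cells for these and RGS16 (5 members, 14.7% of all genes). SIK1 was the 1 member with every Fer-1-pretreated library below every untreated library, in MM1R (14.1% of all genes) and in MM1S (13.6% of all genes).

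Averaged over both lines, a comparison added after the values had been seen, RHOB rose by a log2 fold change of 2.22 (SE 0.48; edgeR Benjamini-Hochberg FDR = 0.00405), RGS2 by 1.62 (SE 0.48; FDR = 0.0249) and RGS1 by 1.51 (SE 0.49; FDR = 0.0398). These 3 members were called among 2.35% of genes called higher, and 0 members among the 0.616% called lower. RHOB kept its call in all 18 fits that left out 1 library, RGS2 in 12 and RGS1 in 9. RGS16 reached a log2 fold change of 0.63 (SE 0.13; edgeR Benjamini-Hochberg FDR = 0.00357), below the fold threshold. CREM stood at 0.37 (SE 0.48; FDR = 0.64) and SIK1 at -0.93 (SE 0.33; edgeR Benjamini-Hochberg FDR = 0.0602), and with passage as a block SIK1 had an FDR of 0.0309 (edgeR, Benjamini-Hochberg) below the fold threshold while PDE4D was called at 1.00 (FDR = 0.00602), where 2.95% of all genes were called higher. Without the library that holds markers of both lines, RHOB stood at 2.26 (edgeR Benjamini-Hochberg FDR = 0.00737), RGS2 at 1.64 (FDR = 0.0398) and RGS1 at 1.56 (FDR = 0.0551). The RGS1 call was lost without the MM1R library that holds markers of both lines (replicate 2 with Fer-1) and without either of the other Fer-1-pretreated MM1R libraries, untreated MM1R replicate 2 or 3, any untreated MM1S library or Fer-1-pretreated MM1S replicate 1, with FDR values up to 0.127 and log2 fold changes of 1.12 to 1.68 over the 18 fits (edgeR, Benjamini-Hochberg). The RGS2 call was lost without untreated MM1R replicate 2 or 3, Fer-1-pretreated MM1R replicate 1, untreated MM1S replicate 1 or 3 or Fer-1-pretreated MM1S replicate 1, with FDR values up to 0.056 and log2 fold changes of 1.52 to 1.73 (edgeR, Benjamini-Hochberg).

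Without treatment, no difference of the members between the lines was detected. Untreated MM1R against untreated MM1S cells called 4.64% of genes and 0 of 8 members, with log2 differences of -0.27 (RGS1) to 0.60 (PDE4B) and edgeR Benjamini-Hochberg FDR values of 0.406 to 0.987. For PDE4B the libraries did not overlap (11.5 to 15.3 CPM in MM1R against 7.84 to 9.79 CPM in MM1S), with a 95% interval of -0.74 to 1.95 on the log2 scale. The share of all genes with such non-overlap was not computed, so nothing is read from it. The RHOB interval of -1.42 to 1.36 leaves room for a difference in either direction. Both intervals use the spread shared over all 6 groups, so they do not measure the untreated spread alone. The coefficient of variation of RHOB was 4.18% and 7.39% in untreated MM1R and MM1S cells, against 85.0% and 120% with RSL3. Nor was a difference between the lines in the RSL3 response detected: the interaction called 0% of genes, 1.55% had an unadjusted p under 0.05 in edgeR, and 0 members were among them. The interaction estimates of RGS1 (1.44, 95% interval -0.59 to 3.48) and CREM (-1.64, -3.67 to 0.40) were the farthest from 0, and that of CREM was 0.74 without MM1S passage 16.

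The other genes of the pathway were taken from 10 lists of 139 genes, of which 137 were in the table and 101 were tested; the lists hold no member and were drawn up with earlier results of these data known. The rest of the RGS family, which share the GTPase-activating domain, had 0 of 11 genes called in either line upon RSL3, with a median log2 fold change of -0.19 in MM1R and -0.04 in MM1S cells. The adenylyl cyclases had 0 of 7 called (medians -0.36 and -0.35), and the subunits and inhibitors of protein kinase A with EPAC 0 of 10 (0.18 and -0.06). The median over all 14281 genes was 0.00 in both lines, and 1.06% of them were called higher in MM1R and 1.35% in MM1S. Counts of 0 in lists this short therefore do not set these lists apart from all genes. PDE3B, a phosphodiesterase that cGMP inhibits, was the 1 called gene of 9 further phosphodiesterases, with log2 fold changes of 1.59 in MM1R and 1.64 in MM1S cells (edgeR Benjamini-Hochberg FDR = 0.0151 and 0.0128). Among receptor kinases and arrestins 1 of 6 was called, the arrestin-domain gene ARRDC3, at 2.10 in MM1R and 1.75 in MM1S cells (edgeR Benjamini-Hochberg FDR = 0.0046 and 0.0077).

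The CREB-responsive list had the highest medians, 1.60 in MM1R and 1.71 in MM1S cells, with 2 of 15 genes called higher in MM1R and 5 of 15 in MM1S and 0 called lower. Of all genes, 1.06% were called higher in MM1R and 1.35% in MM1S. CEBPB, a bZIP transcription factor, rose by a log2 fold change of 1.72 in MM1R and 1.71 in MM1S cells (edgeR Benjamini-Hochberg FDR = 0.00568 and 0.00489). NR4A1, an orphan nuclear receptor and immediate early gene, rose by 6.74 and 8.57 (edgeR Benjamini-Hochberg FDR = 0.0458 and 0.0236), with 316, 32.1 and 1391 CPM in RSL3-treated MM1R and 2073, 15.7 and 11.4 CPM in RSL3-treated MM1S cells. Like RGS1 and RHOB, NR4A1 was thus highest in passages 7 and 16. AREG, an EGF receptor ligand, rose in MM1S cells by 5.28 (edgeR Benjamini-Hochberg FDR = 0.0255), with 122, 4.10 and 2.72 CPM in RSL3-treated cells. In MM1R cells AREG stood at 3.67 (edgeR Benjamini-Hochberg FDR = 0.0943) and was not called. The other 2 calls in MM1S, NR4A2 and NR4A3, are named after their values were seen: NR4A2 had 391, 2.34 and 1.92 CPM in RSL3-treated MM1S cells and a log2 fold change of 7.11 (edgeR Benjamini-Hochberg FDR = 0.0392), and NR4A3 had 733, 2.18 and 0.907 CPM with at most 5 counts in any untreated library of either line. Neither NR4A2 nor NR4A3 was called in MM1R, where NR4A2 stood at 5.98 (edgeR Benjamini-Hochberg FDR = 0.0807). With passage as a block, NR4A1 and NR4A2 were no longer called in MM1S, where 3 of the 15 genes remained, and 5 of the 15 were called in MM1R, NR4A1 among them.

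In the remaining lists, the chemokine receptor CXCR4, 1 of 8 receptors, rose in MM1R by 2.25 (edgeR Benjamini-Hochberg FDR = 0.0364). In MM1S CXCR4 stood at 1.53 (edgeR Benjamini-Hochberg FDR = 0.128) and was not called. CREB5, a CREB-family factor and 1 of 10 in its list, rose in MM1S by 3.96 (edgeR Benjamini-Hochberg FDR = 0.0287), with 56.3, 11.9 and 2.83 CPM in RSL3-treated cells. GNAZ, an inhibitory alpha subunit and 1 of 10, fell in MM1S by 1.23 (FDR = 0.0181). In MM1R CREB5 stood at 3.51 (edgeR Benjamini-Hochberg FDR = 0.0504) and GNAZ at -0.72 (FDR = 0.146), neither called. In all, 6 of 101 list genes were called higher and 0 lower in MM1R, and 9 higher and 1 lower in MM1S. The shares of all genes called higher were 1.06% in MM1R and 1.35% in MM1S. Without the passage 16 RSL3 library the MM1S calls shrank to ARRDC3 and CEBPB while those of MM1R grew to 12, and without the passage 7 RSL3 library 4 were called in MM1R. Without the 3 libraries of passage 16 no list gene was called in MM1S (0 of 101), and without those of passage 7 none in MM1R (0 of 101), where 0.243% and 0.0617% of all genes were called higher. Fer-1 with RSL3 against untreated cells called PDE3B (1.67 and 1.69), ARRDC3 (1.99 and 1.71) and CEBPB (1.71 and 1.82) higher in MM1R and MM1S alike, with edgeR Benjamini-Hochberg FDR values from 0.0016 to 0.0066. The 1 list gene called lower was PTGER4, a prostaglandin E2 receptor, which fell in MM1S by 1.09 (edgeR Benjamini-Hochberg FDR = 0.0434).

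**Figure D4:**
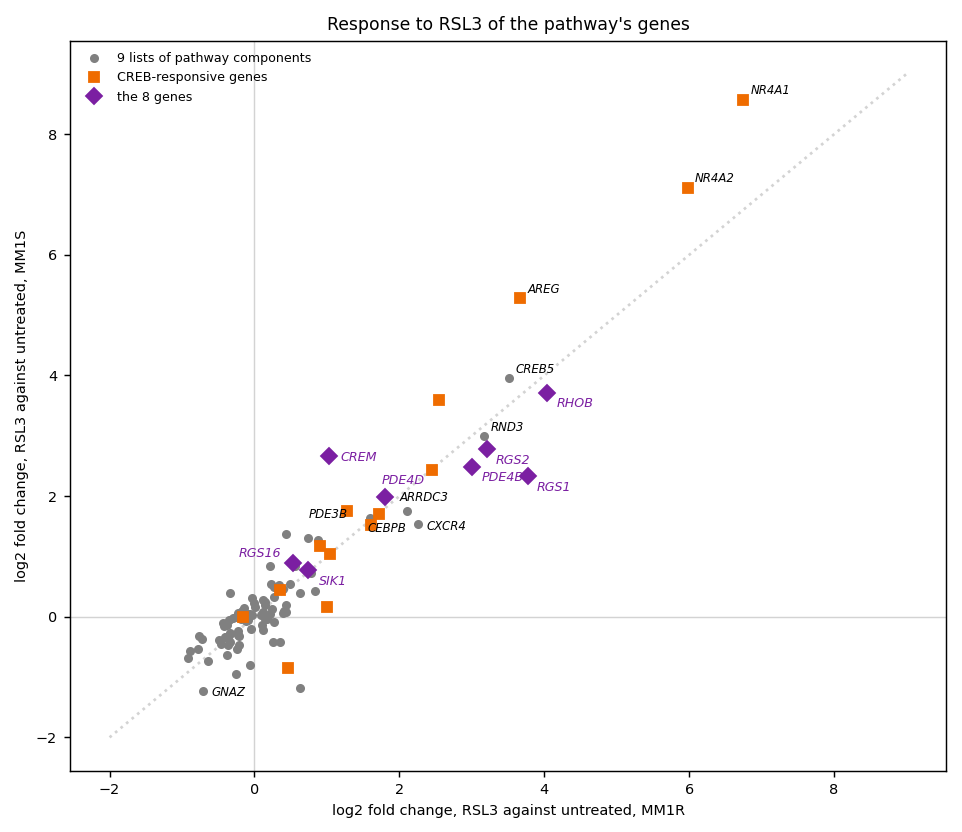
Fitted log2 fold change upon RSL3 in MM1R (x axis) and MM1S (y axis) for the 8 members and for the tested genes of the 10 pathway lists, with a dotted diagonal where both lines respond alike; NR4A3 is left out because its untreated libraries hold at most 5 counts. RHOB (4.04 and 3.72) and CREB-responsive genes such as NR4A1 (6.74 and 8.57) lie toward the upper right, while most genes of the other lists, in grey, lie around 0, near RGS16 and SIK1.

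The genes most like each member were sought among all tested genes by Pearson's r of log2 CPM over the 18 libraries after subtracting the mean of each line. These r are descriptive, since the points share treatment groups and passages. JUN was closest to RHOB (r = 0.985), KLF6 to RGS2 (0.970), DUSP1 to RGS1 (0.951) and to PDE4D (0.962), and NR4A2 to PDE4B (0.967). SYAP1 was closest to CREM (0.983), CDV3 to SIK1 (0.971) and P2RY6 to RGS16 (0.938). JUN and KLF6 encode transcription factors and DUSP1 a MAP kinase phosphatase, all immediate early genes. Among the 28 pairs of members r was highest for RGS2 with RHOB (0.981), lowest for RGS16 with SIK1 (0.0430) and had a median of 0.768.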

How the data were processed

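RNA of MM1R and MM1S cells was sequenced (BGISEQ-500, 50 bp paired reads) in 18 libraries, 3 for each of 6 groups. Per the submitters' processing notes, FastQC 0.11.5 and STAR 2.7.3a were used with hg19. The counting tool and its strand setting are not given in the sources used here, so that counts of overlapping genes are uncertain. The authors deposited raw counts per gene (43735 genes) and a second table of normalised signal values (29553 genes) scaled between libraries. Groups came from the sample titles, and 0 data columns lacked a sample.

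The deposited counts were analysed in R 4.3.3 with edgeR 4.0.16. Genes passing filterByExpr (minimum count 10; 14281 genes) were scaled by TMM and fitted with the quasi-likelihood test on 6 group means over all 18 libraries. P-values were adjusted by Benjamini-Hochberg over all tested genes, and a gene was called at an FDR under 0.05 with an absolute log2 fold change above 1. CPM values use the TMM-scaled library size, except those of the plasma cell and fibroblast markers, which use the plain library total. Intervals are 95% intervals from the fit. The fit was also run on simulated counts drawn independently, without passage effects or outlying libraries. That run therefore does not cover the spread seen in these libraries. Replicate numbers pair the samples, because the labels give the same passage for the same replicate of a line. Deviations from group means correlated within passages, at r = 0.0338 to 0.516 in MM1R and 0.216 to 0.681 in MM1S.

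Alternatives were DESeq2 1.42.0, RLE scaling, no filter, passage as a replicate block, 1 line alone, each library left out and limma 3.58.1 on log2(deposited signal + 1). Fits without a whole passage, and the comparison of Fer-1 with RSL3 against untreated cells averaged over lines, were added after seeing the data. The members and the pathway lists were chosen with earlier results of these data known. All 8 members are named, with at most 3 called genes of each list by smallest FDR and the 1 gene most like each member. The genes of 1 list are counted in the totals but not reported here by name. Promoter sequences are from RefSeq (GRCh38.p14, all 8 members matched) and were located in hg19 by exact match. No 2 replicate libraries were alike within sampling error (chi-square divided by its degrees of freedom 5.62 to 106).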

Additional observations from a re-analysis of the deposited data

How the results depend on the processing

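For RSL3 against untreated cells, where 4 members were called in each line, the number of members called was 0 to 6 in MM1R and 0 to 6 in MM1S when single libraries were left out; in MM1R it fell to 0 without untreated replicate 1 and in MM1S to 0 without untreated replicate 1 or 3. The number of members called was 0 in MM1R without passage 7, and in MM1S 0 without passage 16, 2 without MM1R passage 7, 0 with only the MM1S libraries and 1 with limma. It was higher in other settings: 6 members in either line with no filter, 5 in either line with the replicate block (with RGS1 and PDE4D gained and CREM lost in MM1S and PDE4D gained in MM1R), 6 in MM1R with only the MM1R libraries or without MM1S passage 16, and 5 in MM1S with DESeq2. The share of all genes called higher moved too, from 1.06% in MM1R and 1.35% in MM1S to 2.36% and 2.21% with the block, 1.37% and 1.59% with no filter, 0.0617% in MM1R without passage 7 and 0.243% in MM1S without passage 16. For Fer-1 with RSL3 against RSL3, where 0 members were called, the number of members called in MM1R was 5 with no filter, 3 without MM1S passage 16 and 0 to 2 with single libraries left out, and in MM1S 4 with no filter. The share of all genes called lower was 0.327% in MM1R and 0.506% in MM1S with no filter, and 0.27% in MM1R without MM1S passage 16. Averaged over lines it was 2 with DESeq2, 6 with no filter, 2 with the replicate block, 1 with the block and without MM1R passage 6 and 0 to 3 with single libraries left out, where the share of all genes called lower was 0.056% as reported, 0.19% with DESeq2, 0.492% with no filter, 0.252% with the block and 0.117% with the block and without MM1R passage 6. For Fer-1 with RSL3 against untreated cells, where 0 members were called in either line, the number of members called in MM1R was 1 with DESeq2, 3 with no filter, 2 with the replicate block, 2 with only the MM1R libraries, 2 without MM1S passage 16 and 0 to 2 with single libraries left out. In MM1S it was 1 with DESeq2, 5 with no filter, 2 with the block, 1 with limma, 1 with the block and without MM1R passage 6, 1 without passage 16 and 0 to 2 with single libraries left out. The averaged comparison, with 3 members called, gave 1 to 4 members with single libraries left out, and the interaction, with 0, gave 2 members with no filter. For Fer-1 with RSL3 against untreated cells the share called higher was 1.47% in MM1R and 0.98% in MM1S with no filter, 2.88% and 1.83% with the block and 1.08% and 0.593% with DESeq2. In MM1R it was 1.88% with only the MM1R libraries and 2.51% without MM1S passage 16. In MM1S it was 1.03% with limma, 1.75% with the block and without MM1R passage 6, and 0.741% without passage 16. With no filter the fit held 27858 genes and a median prior degrees of freedom of 1727 against 4.66; for the other changes the cause was not tested. The replicate block changed no member's call other than those given here and beside the results.

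Without MM1S passage 16 the log2 fold change of SIK1 upon RSL3 in MM1S was -0.11, and single libraries left out gave SIK1 values of -0.23 to 1.11. For Fer-1 with RSL3 against RSL3 in MM1S, the values without passage 16 were 0.0613 for RGS1, 0.62 for RGS2, 0.16 for RGS16, 0.0355 for PDE4B and 0.26 for RHOB. With single libraries left out the same comparison ranged from -1.60 to 0.83 for RGS1, -1.30 to 0.78 for RGS2, -0.11 to 0.11 for RGS16, -1.87 to 0.31 for PDE4B, -1.53 to 0.64 for PDE4D, -2.80 to 0.0875 for CREM and -1.75 to 0.40 for RHOB. The interaction of CREM was 0.74 without passage 16 and -2.14 to 0.75 with single libraries left out. The cause of these reversals was not tested. All counts rest on 3 libraries a group, in which the coefficient of variation of the members with RSL3 had a median of 56.3% in MM1R and 118% in MM1S.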
